A study of Mus musculus with 17 samples.

Results

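The genes described here are 31 mouse genes of cholesterol synthesis, uptake and sterol sensing, a set named by gene symbol. They are 31 of 53588 gene symbols summed from the deposited transcripts, and all 31 were among the 19796 genes with enough counts to be tested. They comprise 19 enzymes of the synthesis pathway, 5 regulators of the SREBP transcription factors, 3 sterol transport genes and 4 genes of sterol efflux, storage and receptor turnover, referred to as LXR-type genes.

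RNA was sequenced from 5 mouse embryonic stem (ES) cell lines derived from MC1 cells (129S6/SvEvTac), which carry at the Rosa26 locus a His6-FLAG-tagged Fox transcription factor under a doxycycline (Dox) repressible promoter, with a puromycin resistance gene. The lines are iFoxA1, iFoxC1, iFoxG1, iFoxL2 and iFoxP3. The 6 libraries at 0 h (2 of iFoxA1, 1 of every other line) came from cells kept with 15% serum, 1000 U/ml LIF and 0.2 µg/ml Dox. The 11 libraries at 24 h (3 of iFoxA1, 2 of every other line) came from cells washed free of Dox and moved to differentiation medium with 10% serum. All 5 lines carry a transgene, so an average change over the lines cannot be told apart from the effects of Dox removal, serum and medium. Whether replicates came from separate cultures is not in the labels, and p-values measure only the spread between these libraries.

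Cholesterol is built from acetyl-CoA through mevalonate, isoprenoid units, squalene and lanosterol. When membrane sterol is low, Scap escorts the SREBP precursors (encoded by Srebf1 and Srebf2) from the endoplasmic reticulum to the Golgi, where proteases release the factor that activates the synthesis genes. Insig proteins hold Scap back when sterol is ample, while oxysterols activate the LXR nuclear receptors, which raise efflux transporters. Dividing ES cells need cholesterol for new membrane, from synthesis or from serum lipoproteins.

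Library totals ran from 17.7 to 37.2 M estimated counts. The 5 libraries above 30 M (iFoxA1 replicate 3 and replicate 2 of every other line at 24 h) are called the second library set, and the 12 others the first. All 0 h libraries belong to the first set. The gene of each transgene was at 0.65 to 3.05 CPM (library-scaled counts) in its own line at 0 h and at 11.5 to 289 CPM at 24 h, against at most 0.75 CPM in other lines. A pair of 24 h libraries stood apart from their replicates. Foxa1 was at 76.8 CPM in iFoxA1 replicate 3, against 236 and 252 CPM in the others, and Foxl2 was at 11.5 CPM in iFoxL2 replicate 2, against 149 CPM. The summed ES cell markers (8 of 8 detected) ranged from 4495 to 5514 CPM at 0 h and from 2281 to 3510 CPM in 9 of the 24 h libraries. The pair that stood apart held 5000 CPM (iFoxA1 replicate 3) and 4708 CPM (iFoxL2 replicate 2), at the level of 0 h as a sum. Single markers differed, given here as counts not scaled for depth. Library totals were 37.2 M for iFoxA1 replicate 3 and 35.7 M for iFoxL2 replicate 2, against 18.8 to 22.2 M at 0 h. Nanog had 10059 and 6655 counts in these deeper libraries, against 11261 to 27681 at 0 h. Klf4 had 7788 counts in iFoxA1 replicate 3 and 2858 in iFoxL2 replicate 2, against 1131 to 1954 at 0 h. Relative to the totals, Nanog was below the 0 h range in both libraries. Klf4 was above that range in iFoxA1 replicate 3 and within it in iFoxL2 replicate 2. Primitive and visceral endoderm markers summed to 119 to 123 CPM in iFoxA1 at 0 h against 3.56 to 5.24 CPM in the other lines, and Afp, a defining member, stayed below 1 CPM in every library. The part of these marker differences in the results was not tested.

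Promoter windows in RefSeq (GRCm38.p6, 250 bases before to 50 after the gene start) were matched by symbol for 25 of the 31 genes. The stretches that follow are the upstream part of 5 windows that no annotated exon covers, each read 5′ to 3′ along the gene's strand. Capitals mark the CCAAT box (CCAAT, either strand, so that ATTGG is its reverse complement) and the sterol regulatory element core (TCACNCCAC, either strand). Hmgcs1, hydroxymethylglutaryl-CoA synthase, is shown at chr13:119690101-119690350 (+) as the only matched gene with the element core, and Ebp, a sterol isomerase, at chrX:8193513-8193762 (-) as an enzyme gene that fell. Insig1 is shown at chr5:28071162-28071362 (+) because its change differed among the lines. Soat1 at chr1:156474332-156474578 (-) and Abca1 at chr4:53159896-53160145 (-) are shown because Soat1 rose and Abca1 fell.
Hmgcs1: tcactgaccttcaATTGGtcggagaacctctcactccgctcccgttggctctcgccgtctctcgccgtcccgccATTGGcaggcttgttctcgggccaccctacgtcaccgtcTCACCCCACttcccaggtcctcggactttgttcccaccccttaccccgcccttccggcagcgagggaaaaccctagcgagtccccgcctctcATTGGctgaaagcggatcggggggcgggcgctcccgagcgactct
Ebp: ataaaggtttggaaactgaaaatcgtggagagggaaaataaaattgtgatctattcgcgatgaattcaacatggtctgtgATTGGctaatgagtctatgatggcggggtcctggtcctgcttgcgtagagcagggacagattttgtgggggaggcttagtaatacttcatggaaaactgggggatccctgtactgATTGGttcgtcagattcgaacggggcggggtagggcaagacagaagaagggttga
Insig1: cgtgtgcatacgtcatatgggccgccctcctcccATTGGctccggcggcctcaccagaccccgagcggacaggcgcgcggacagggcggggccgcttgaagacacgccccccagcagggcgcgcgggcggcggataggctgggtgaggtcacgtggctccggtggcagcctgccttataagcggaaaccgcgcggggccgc
Soat1: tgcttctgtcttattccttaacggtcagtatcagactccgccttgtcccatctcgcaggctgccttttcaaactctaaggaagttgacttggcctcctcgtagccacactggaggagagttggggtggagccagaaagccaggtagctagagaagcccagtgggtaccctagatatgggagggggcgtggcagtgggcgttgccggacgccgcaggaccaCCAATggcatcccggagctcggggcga
Abca1: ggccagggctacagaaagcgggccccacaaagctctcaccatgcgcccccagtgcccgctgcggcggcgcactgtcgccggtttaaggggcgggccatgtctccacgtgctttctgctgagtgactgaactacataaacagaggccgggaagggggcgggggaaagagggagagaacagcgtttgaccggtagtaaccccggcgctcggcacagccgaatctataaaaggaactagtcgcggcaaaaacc

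Over the whole 300-base windows, CCAAT boxes were found in 22 of 25 matched genes (88%), against 43.1% of the 12754 tested genes with a window and 41.1% of all 27025 genes. Of the 16 matched enzymes, 15 held one, and Acat2 was the exception. A gene with several windows was counted when any of them held a match, here and over all genes. Some of these windows lay far from the start of the gene's most counted transcript. The distance was 4577 bases for Pmvk, 4565 for Insig2, 1977 and 10133 for Srebf1 and 588 for Dhcr7. For the other genes with a box it was at most 214 bases (Msmo1). GC boxes (GGGCGG, either strand) were found in 23 of 25 (92%), against 63.4% of tested genes. The sterol regulatory element core was found in Hmgcs1 alone, beginning 137 bases before the start, against 1.44% of all genes. The longer form, with AT before CACNCCAC, was found in 0 of 25, against 0.27% of all genes. The LXR-type repeat, a pair of AGGTCA in 1 direction with 4 bases between them, was found in 0 of 25, against 0.0148% of all genes. These are matches of fixed letters within the windows, and they say nothing of sites outside them or of other spellings. The longer form and the repeat are so rare over all genes that 0 of 25 is uninformative.

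In TPM (transcript abundance scaled by length, so that genes can be compared), several early steps of the pathway had the highest medians at 0 h. The median over the 6 libraries was 161 TPM for Hmgcs1, 155 TPM for Fdps (farnesyl diphosphate synthase), 104 TPM for Idi1 (isopentenyl diphosphate isomerase) and 93.4 TPM for Acat2 (acetoacetyl-CoA thiolase, the first step). Hsd17b7, a late sterol ketoreductase, had the lowest median of the enzymes, 5.47 TPM. Srebf2, the regulator most tied to cholesterol genes, stood at 68.6 TPM and Srebf1 at 22.1 TPM, and their libraries did not overlap. Of the LXR-type genes, the transporters Abca1 and Abcg1 and the ligase gene Mylip were near the bottom. Their medians were 2.10 TPM for Abca1, 1.67 TPM for Mylip and 1.16 TPM for Abcg1, and their library ranges overlapped.

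The first comparison asked what changed from 0 h to 24 h on average over the 5 lines. Among the synthesis enzymes 6 of 19 fell and 0 rose. Scap rose, and Insig1 and Insig2 fell on average, each lower in 3 lines and higher in 2. Neither Insig gene was called without the iFoxC1 library at 0 h. Of the LXR-type genes, Soat1, Abcg1 and Mylip rose and Abca1 fell. Over all 31 genes, 4 rose, 11 fell and 16 were not past the adjusted p threshold of 0.05 (edgeR, quasi-likelihood test). The background was high: 37.8% of all tested genes were called, 21.7% higher and 16.1% lower. The median log2 change was -0.24 for the 31 genes, -0.27 for the 19 enzymes and 0.04 for all tested genes. Without the iFoxC1 library at 0 h, which leaves the average over the 4 other lines, it was -0.07 for the 31 genes and -0.10 for the enzymes, of which 2 then rose and 6 fell. In bulk RNA, fewer cells of a type and less RNA per cell cannot be told apart.

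**Figure D1:**
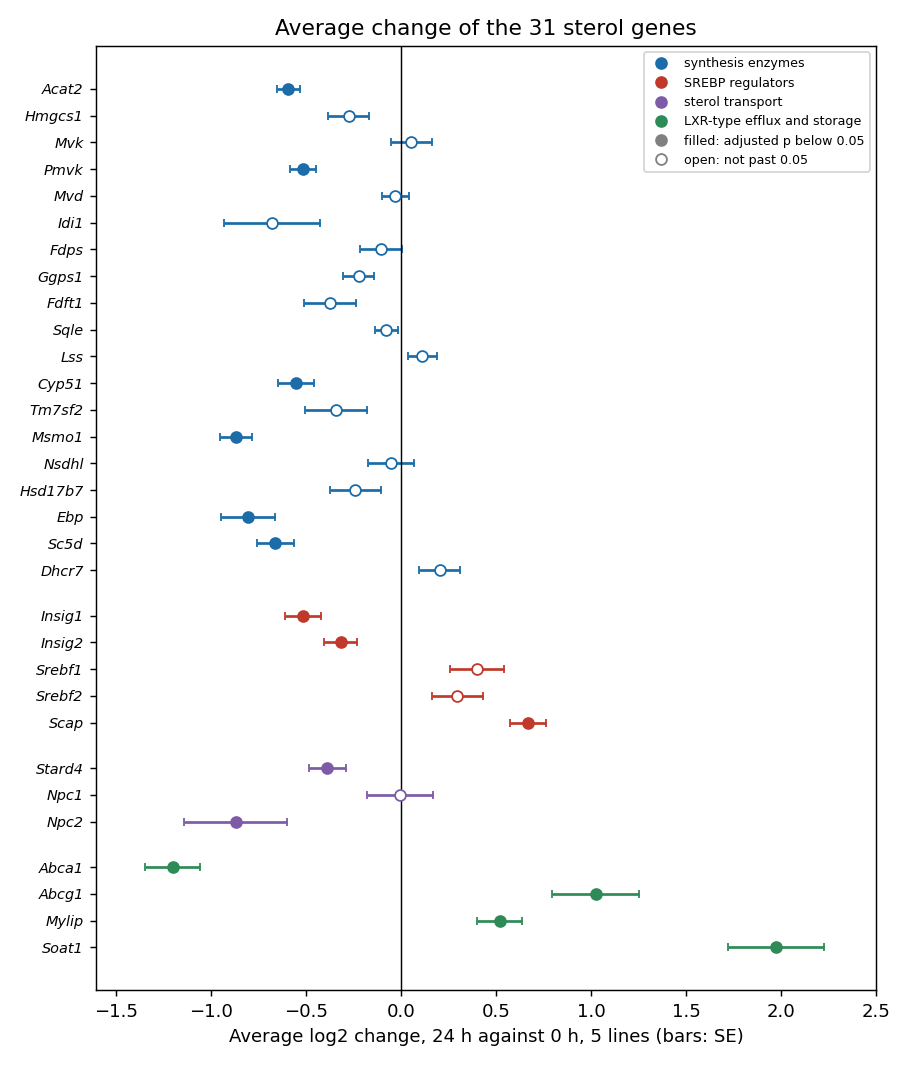
Average log2 change from 0 h to 24 h over the 5 lines for each of the 31 genes, in blocks by role, with bars for the standard error and filled points for an adjusted p below 0.05. Of the 19 synthesis enzymes, 16 lie left of 0 and 6 are filled, and Soat1 and Abca1 lie furthest from 0 in opposite directions.

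Msmo1 acts in the removal of methyl groups at carbon C4 of the sterol ring. Its lowest, median and highest 0 h values were 70.9, 103 and 145 CPM, and those at 24 h were 39.8, 59.6 and 74.6 CPM. It fell by 0.87 ± 0.08 (log2 ± SE, adjusted p = 7.8e-05) and was lower in all 5 lines. Averaged over the 4 lines other than iFoxC1, it fell by 0.62. The iFoxA1 values at 0 h (73.7 and 70.9 CPM) lay within the 24 h range. Acat2 ran from 148 to 196 CPM at 0 h (median 164) and from 92.3 to 132 CPM at 24 h (median 111). Every 24 h library lay below every 0 h library, and Acat2 fell by 0.59 ± 0.06 (adjusted p = 9.3e-05).

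Cyp51, lanosterol demethylase, was the other enzyme without overlap. It ran from 107 to 156 CPM at 0 h (median 112) and from 56.5 to 105 CPM at 24 h (median 85.0), and fell by 0.55 ± 0.10 (adjusted p = 0.0018). Ebp ran from 30.3 to 50.6 CPM at 0 h (median 37.1) and from 14.8 to 41.4 CPM at 24 h (median 26.3), and fell by 0.80 ± 0.14 (adjusted p = 0.0019). iFoxA1 replicate 3 was the highest of its 24 h libraries, and Ebp was at 17.9 and 14.8 CPM in iFoxG1. In iFoxA1 replicate 3 the retained-intron transcript Ebp-202 held 636 counts and the coding Ebp-201 held 527. In the second library set Ebp-202 also exceeded Ebp-201 in iFoxC1 (384.0 against 344.6 counts) and iFoxL2 (383.1 against 323.5). It did not in iFoxG1 or iFoxP3, nor in any 24 h library of the first set. Sc5d, the sterol desaturase that follows Ebp, went from a median of 30.3 CPM at 0 h (25.6 to 36.8) to 21.3 CPM at 24 h (13.6 to 26.3) and fell by 0.66 ± 0.10 (adjusted p = 0.00079). Pmvk, phosphomevalonate kinase, went from 47.5 CPM (40.8 to 70.1) to 35.4 CPM (26.3 to 45.3) and fell by 0.51 ± 0.07 (adjusted p = 0.00047). For Sc5d and Pmvk the 2 times overlapped in a few libraries.

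The 13 other enzymes did not pass the test. Their average log2 changes ran from -0.68 ± 0.25 for Idi1 (adjusted p = 0.060) to 0.20 ± 0.11 for Dhcr7, the reductase of the last step (adjusted p = 0.17), and 10 of the 13 were below 0. Idi1 had its lowest values in iFoxL2 replicate 2 (48.4 CPM) and iFoxA1 replicate 3 (63.9 CPM), against 91.4 to 191 CPM in the other 24 h libraries. Between the library sets at 24 h, 11 of the 31 genes differed, 7 higher and 4 lower in the second set, where 12.7% of all tested genes were higher and 13.6% lower. Idi1 (-0.86) and Hmgcs1 (-0.34) were among those lower, and Npc2 (0.75), Srebf1 (0.43) and Srebf2 (0.37) among those higher in the second set. Gene sums include retained-intron transcripts. At 24 h the retained-intron Npc2-203 held 1357 to 3619 counts in the second set and 221 to 415 in the first, not scaled for depth. The coding Npc2-201 went from 1166.5 counts of 20.3 M in iFoxC1 replicate 1 to 1300 of 34.1 M in replicate 2. In iFoxL2 it went from 1129 of 18.4 M to 4204 of 35.7 M.

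**Figure D2:**
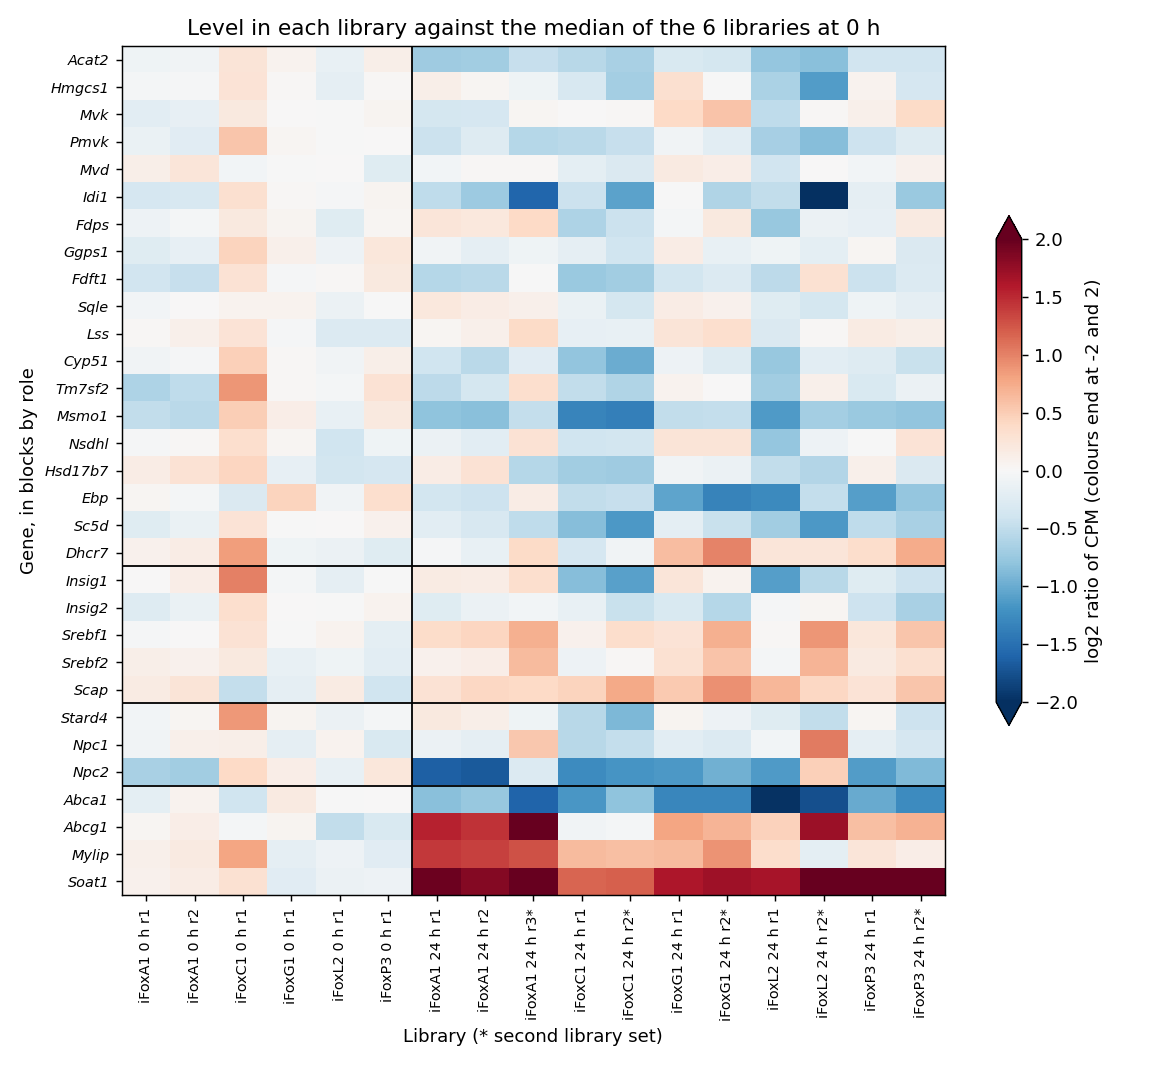
Log2 ratio of each gene's CPM in each of the 17 libraries to its median over the 6 libraries at 0 h, with red higher and blue lower. The iFoxC1 column at 0 h is red in most rows, Soat1 is red and Abca1 blue in all 24 h columns, and iFoxA1 replicate 3 and iFoxL2 replicate 2 differ from their neighbours at Idi1, Npc1 and Npc2.

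Among the 5 SREBP regulators, Scap rose, Insig1 and Insig2 fell, and Srebf1 and Srebf2 did not pass the test. Averaged over the 4 lines other than iFoxC1, which has a lone 0 h library, 3 rose (Scap, Srebf1 and Srebf2) and neither Insig gene was called. Scap ran from 25.2 to 41.8 CPM at 0 h (median 35.1) and from 42.2 to 66.4 CPM at 24 h (median 47.6). The times did not overlap, and Scap rose by 0.67 ± 0.10 (adjusted p = 0.00060). Insig1, which retains Scap and is itself an SREBP target, ran from 95.9 to 220 CPM at 0 h (median 109) and from 50.8 to 139 CPM at 24 h (median 92.4). Its average fell by 0.51 ± 0.09 (adjusted p = 0.0026), but the times overlapped and the direction differed by line. Insig2, its paralogue, ran from 16.1 to 24.2 CPM at 0 h and from 12.3 to 19.7 CPM at 24 h, and fell by 0.32 ± 0.09 (adjusted p = 0.017). In TPM with limma the Insig2 value was 0.27 (adjusted p = 0.32). In that unit the short transcript Insig2-209 alone held 15.8 TPM in iFoxG1 replicate 2, and 0 TPM in the other libraries.

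Srebf1 was 0.40 ± 0.14 higher at 24 h (adjusted p = 0.053) and Srebf2 0.30 ± 0.13 (adjusted p = 0.11), neither past the threshold. Srebf1 ran from 45.0 to 63.5 CPM at 0 h and from 52.3 to 94.9 CPM at 24 h, and Srebf2 from 173 to 231 CPM and from 188 to 324 CPM. For both genes the highest library was iFoxL2 replicate 2. Of the Srebf1 transcripts, Srebf1-201 exceeded Srebf1-207, which starts further downstream, in every library. Their TPM ratio was 1.70 to 3.65 at 0 h. At 24 h it was 1.45 to 2.38 in the first library set and 2.47 to 4.82 in the second, so the sets did not overlap at that time. The 0 h libraries, all of the first set, overlapped both ranges.

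Non-overlapping times were seen for 5 of the 31 genes, Soat1 and Scap above and Abca1, Acat2 and Cyp51 below. Over all tested genes, 4.8% lay wholly above at 24 h and 3.9% wholly below.

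Among the transport genes, Stard4, a cytosolic sterol carrier and SREBP target, fell by 0.39 ± 0.10 (adjusted p = 0.012). It ran from 62.8 to 125 CPM at 0 h (median 68.4) and from 36.8 to 78.2 CPM at 24 h (median 64.0), with wide overlap. Npc2 and Npc1 hand cholesterol out of the lysosome. Npc2 ran from 109 to 233 CPM at 0 h (median 177) and from 55.4 to 246 CPM at 24 h (median 81.0), and fell by 0.87 ± 0.27 (adjusted p = 0.031). The 24 h libraries above 100 CPM were iFoxL2 replicate 2 (246 CPM) and iFoxA1 replicate 3 (147 CPM), the pair that stood apart. Without both, Npc2 fell by 1.19. Its call was kept in 7 of 17 fits that each left out 1 library. The average change of Npc1 was 0.00 ± 0.17 (adjusted p = 1.00), with 70.1 CPM in iFoxL2 replicate 2, the next highest value in iFoxA1 replicate 3 and 23.4 to 33.0 CPM in the other 24 h libraries.

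Of the LXR-type genes, 3 rose and 1 fell. Soat1 (chromosome 1, 156424525 to 156474331, minus strand), which esterifies cholesterol for storage in droplets, ran from 12.2 to 17.8 CPM at 0 h with a median of 14.4 CPM. At 24 h it ran from 32.2 to 123 CPM with a median of 51.6 CPM. Every 24 h library was above every 0 h library, and Soat1 rose by 1.97 ± 0.25 (3.93-fold, adjusted p = 0.00033). The highest values were iFoxL2 replicate 2 (123 CPM) and iFoxA1 replicate 3 (104 CPM), and without both the rise was 1.72. The lowest 24 h values were those of iFoxC1 (32.2 and 33.1 CPM). Soat1 is not itself a textbook LXR target and is grouped here for storage.

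Abca1 (chromosome 4, 53030787 to 53159895, minus strand), the transporter that passes cholesterol to apolipoproteins, ran from 8.63 to 12.8 CPM at 0 h (median 11.4) and from 2.90 to 6.77 CPM at 24 h (median 4.76). It fell by 1.20 ± 0.15 (adjusted p = 0.00026), with no overlap. Abcg1, a second sterol exporter and LXR target like Abca1, ran from 2.71 to 4.16 CPM at 0 h (median 3.81) and from 3.62 to 20.1 CPM at 24 h (median 6.17). It rose by 1.02 ± 0.23 (adjusted p = 0.0067), and the iFoxC1 libraries, at 3.62 and 3.72 CPM, stayed within the 0 h range. Mylip, a ubiquitin ligase that removes lipoprotein receptors and a further LXR target, ran from 3.38 to 6.83 CPM at 0 h (median 3.94) and from 3.45 to 10.6 CPM at 24 h (median 6.10), and rose by 0.52 ± 0.12 (adjusted p = 0.0072).

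**Figure D3:**
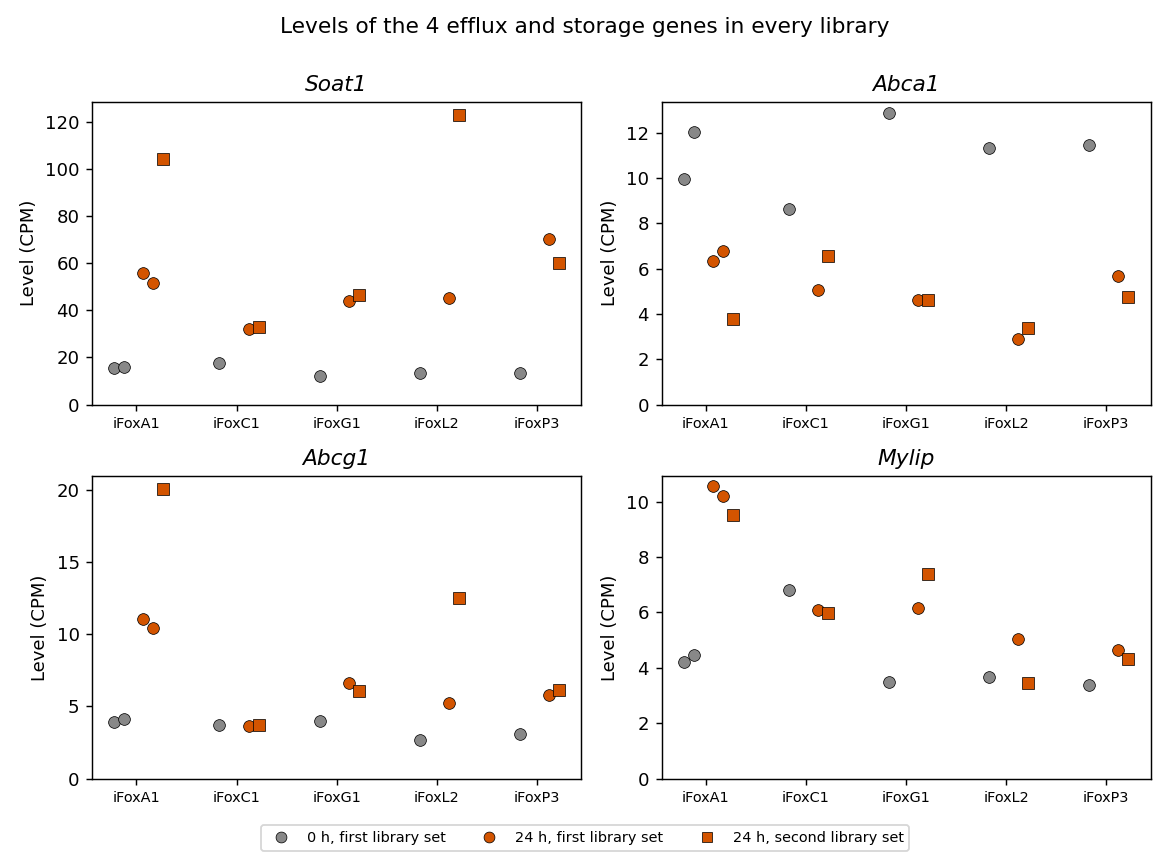
CPM of Soat1, Abca1, Abcg1 and Mylip in every library, by line, with grey for 0 h, orange for 24 h, circles for the first library set and squares for the second. Soat1 lies higher and Abca1 lower at 24 h in each line, and Abcg1 and Mylip reach 20.1 and 10.6 CPM in iFoxA1 at 24 h.

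Within the first library set alone, the average changes were 1.73 for Soat1, -1.19 for Abca1, 0.80 for Abcg1, -0.93 for Msmo1, 0.58 for Scap and -0.53 for Insig1. The second set holds no 0 h library, so it gives no value of its own. In the first set alone 6 genes rose and 19 fell, with a spread that rests on the iFoxA1 replicates. Without the pair that stood apart, 6 rose and 17 fell. Without the iFoxC1 library at 0 h the average is over 4 lines, since iFoxC1 then has no change of its own. In that average 8 genes rose and 7 fell, Insig1 was at -0.15 and Stard4 at -0.09, Insig2 and Npc2 were no longer called, and Lss, Dhcr7, Srebf1 and Srebf2 were called higher.

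That library had the highest CPM of the 6 at 0 h for 26 of the 31 genes (83.9%), 17 of them enzymes, against 25.9% of all tested genes. Insig1 was at 220 CPM there and at 95.9 to 119 CPM in the 5 others. Stard4 was at 125 CPM against 62.8 to 70.9 CPM, and Dhcr7 at 69.4 CPM against 32.8 to 43.0 CPM. Tm7sf2, a sterol reductase, was at 23.4 CPM against 8.28 to 15.6 CPM. Scap went the other way, with its lowest value at 25.2 CPM. The same library held 1312 CPM of the ES cell marker Nanog against 579 to 656 CPM, and 114 CPM of Lin28a against 276 to 335 CPM. It has no replicate, and the part of those marker differences in the sterol gene levels was not tested. No member passed the test for differences among the lines at 0 h (edgeR, 8 at an unadjusted p under 0.05, 4 by DESeq2, 0 by limma on TPM), where 0.495% of all tested genes did.

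Changes within each line were also counted, which does not test a difference between lines. In iFoxC1, 1 gene rose and 11 fell of the 31 (of all tested genes 6.25% rose and 3.48% fell), and all 19 enzymes were below 0, 9 of them past the threshold, with a median of -0.86. These values rest on the lone iFoxC1 library at 0 h, the highest of the 6 for 17 of the 19 enzymes. In iFoxA1, 3 rose (Soat1, Abcg1 and Mylip) and 2 fell, Acat2 and Abca1 (of all tested genes 6.63% rose and 4.14% fell), and the enzyme median was -0.02. In iFoxG1, Scap rose and Ebp and Abca1 fell (background 3.34% higher and 2.3% lower), and the enzyme median was 0.01. In iFoxL2, Soat1 rose and Acat2, Pmvk and Abca1 fell (2.3% higher and 1.93% lower), with an enzyme median of -0.21. In iFoxP3, Msmo1 alone fell and 0 rose (3.26% higher and 2.79% lower), with 10 genes at an unadjusted p under 0.05, 8 called by DESeq2, 1 by limma and an enzyme median of -0.34. All-gene medians lay between 0.01 and 0.05 in the 5 lines.

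**Figure D4:**
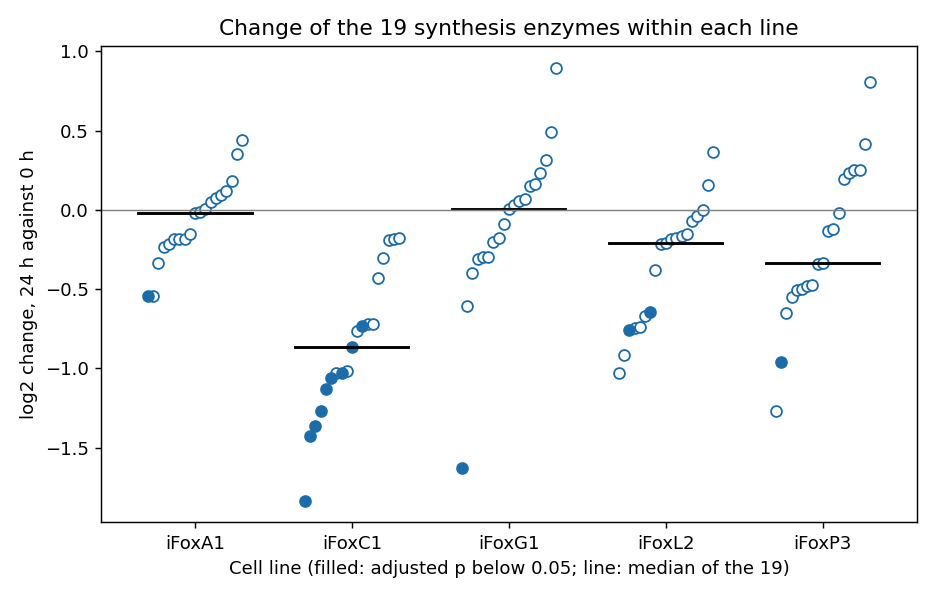
Log2 change from 0 h to 24 h of the 19 synthesis enzymes within each line, sorted within the line, with filled points for an adjusted p below 0.05 and a black bar at the median. All 19 points lie below 0 in iFoxC1, with a median of -0.86, whereas the medians of iFoxA1 and iFoxG1 lie at -0.02 and 0.01.

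The next comparison tested whether the 5 changes differed. Of the 31 genes only Insig1 passed (adjusted p = 0.031), and of the 19 enzymes 0 did (7 at an unadjusted p under 0.05, 6 by DESeq2, 0 by limma), with 1% of all tested genes called, and DESeq2 called 9 of the 31. Insig1 (chromosome 5, 28071363 to 28078662, plus strand) went from 220 CPM to 60.7 and 51.4 CPM in iFoxC1. In iFoxA1 it went from 109 and 119 CPM to 122, 121 and 139 CPM. It went from 106 CPM to 130 and 114 CPM in iFoxG1. In iFoxL2 it went from 95.9 CPM to 50.8 and 74.2 CPM, and in iFoxP3 from 109 CPM to 92.4 and 81.6 CPM. The gene was thus lower in every 24 h library of iFoxC1, iFoxL2 and iFoxP3 than in that line's 0 h library. It was higher in every 24 h library of iFoxA1 and iFoxG1 than in that line's 0 h libraries. Within single lines the Insig1 change passed the threshold in iFoxC1 alone (log2 -1.98). In iFoxA1 the nearest libraries of the times were at 119 and 121 CPM. The call for a difference among the 5 changes was kept in 6 of 17 fits with 1 library left out. It was lost without the iFoxC1 library at 0 h.

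Against the mean change of the 4 other lines, iFoxC1 was lower for 4 genes. They were Insig1 (-1.83 ± 0.24, adjusted p = 0.015), Stard4 (-1.49 ± 0.25, adjusted p = 0.031), Dhcr7 (-1.54 ± 0.28, adjusted p = 0.038) and Msmo1 (-1.21 ± 0.22, adjusted p = 0.038). Over all tested genes 0.404% were called lower in this contrast. Each of these values includes the lone iFoxC1 library at 0 h. With 1 other library left out, the Insig1 call was kept in 13 of 16 fits, Stard4 in 8, Msmo1 in 6 and Dhcr7 in 5. Msmo1 was also less reduced in iFoxA1 than in the others (0.85 ± 0.18, adjusted p = 0.042, background 1.39%, kept in 5 of 17 fits), going from 73.7 and 70.9 CPM to 59.0, 57.9 and 74.1 CPM. For iFoxG1, iFoxL2 and iFoxP3, edgeR called 0 of the 31 genes, with 4, 0 and 1 at an unadjusted p under 0.05, and both DESeq2 and limma called 0. The backgrounds were 0.111%, 0.00505% and 0%.

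**Figure D5:**
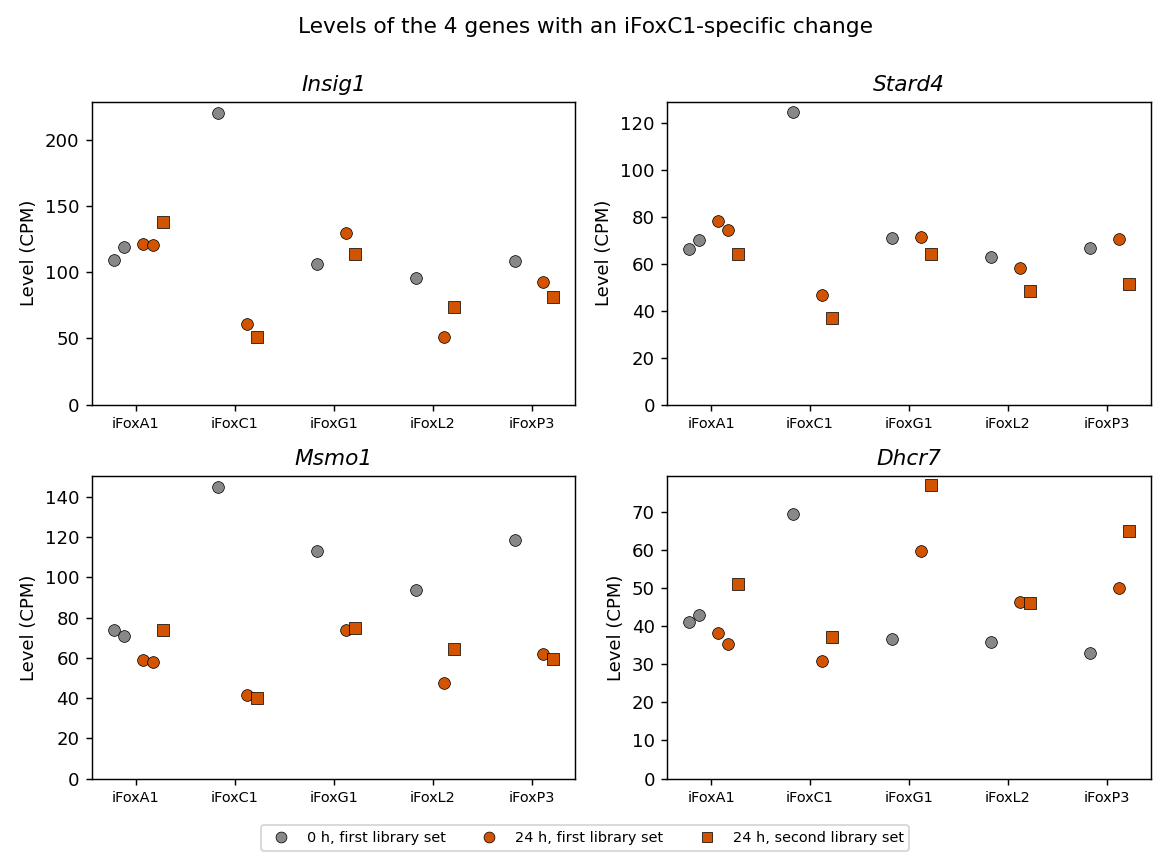
CPM of Insig1, Stard4, Msmo1 and Dhcr7 in every library, by line, with grey for 0 h, orange for 24 h, circles for the first library set and squares for the second. The grey iFoxC1 point is the highest of the 0 h points in each panel, and the orange iFoxC1 points of Insig1, Stard4 and Msmo1 are at or near the bottom of their panels.

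In a comparison of the lines at 24 h the differences use no 0 h library, although the spread behind the p-values is pooled with the iFoxA1 libraries at 0 h. Insig1 was lower in iFoxC1 than the mean of the 4 other lines (-0.77 ± 0.15, adjusted p = 0.024) and higher in iFoxA1 (0.70 ± 0.12, adjusted p = 0.0043) and iFoxG1 (0.63 ± 0.14, adjusted p = 0.047). In order of level, iFoxA1 and iFoxG1 overlapped at the top, iFoxP3 followed at 92.4 and 81.6 CPM, and iFoxL2 and iFoxC1 overlapped at the bottom. Msmo1 was lower in iFoxC1 as well (-0.64 ± 0.14, adjusted p = 0.034), at 41.5 and 39.8 CPM against 47.3 to 74.6 CPM in the other lines. Of all tested genes 1.28% were called lower in iFoxC1, and 1.51% higher in iFoxG1. The mean log2(CPM + 1) of 7 trophoblast markers was 3.34 and 3.42 in iFoxC1 at 24 h. In the other 24 h libraries it was 1.80 to 2.82. Not every marker was highest in iFoxC1: Krt7 had 119 counts in its replicate 1 and 360 in iFoxA1 replicate 1. The part of these markers in the differences was not tested.

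In iFoxA1 at 24 h, 6 of the 31 genes were higher than in the other lines and 0 lower, against 8.88% and 6.24% of all tested genes. Abcg1 was at 11.1, 10.4 and 20.1 CPM in iFoxA1 and at 3.62 to 12.5 CPM in the others (1.23 ± 0.26, adjusted p = 0.013). Mylip was at 10.6, 10.2 and 9.52 CPM against 3.45 to 7.38 CPM, without overlap (0.94 ± 0.14, adjusted p = 0.0023). Fdps (0.49 ± 0.14), Ebp (0.67 ± 0.18) and Sqle, squalene epoxidase (0.29 ± 0.08), were the 3 enzymes called, besides Insig1, with adjusted p values of 0.042, 0.036 and 0.031. Of the 9 calls at 24 h in all lines, leaving out iFoxA1 replicate 1 or 2 at 0 h ended those of Fdps, Sqle and Ebp in iFoxA1, Msmo1 in iFoxC1 and Insig1 in iFoxG1, and leaving out replicate 2 also ended that of Insig1 in iFoxC1. These calls were also lost without various single 24 h libraries. In iFoxA1, Fdps was kept in 6 of 17 fits with 1 library left out, Ebp in 7 and Sqle in 9. Msmo1 in iFoxC1 was kept in 8, Insig1 in iFoxC1 in 12 and Insig1 in iFoxG1 in 7. The calls of Insig1, Abcg1 and Mylip in iFoxA1 were kept in every such fit. Of the 6 iFoxA1 calls, limma on TPM kept those of Abcg1 and Fdps and lost those of Insig1, Mylip, Ebp and Sqle. The endoderm marker sum was 92.4 to 256 CPM in these libraries against 8.65 to 36.2 CPM in the other lines at 24 h, and its part in the differences was not tested. In iFoxL2 and iFoxP3 edgeR called 0 genes, with 12 and 2 at an unadjusted p under 0.05, DESeq2 called 6 and 0, and limma 0 and 0. The backgrounds were 1.64% and 0.561%.

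Around the 31 genes, neighbouring parts of lipid metabolism were counted in the average change, in which 21.7% of all tested genes rose and 16.1% fell. Of 14 fatty acid synthesis genes, which SREBP also serves, 4 rose and 2 fell. Elovl5, an elongase, fell by 0.39, while Acaca (0.39) and Fasn (0.44), the carboxylase and synthase of the pathway, and Fads2, a desaturase (1.06), rose. Of 9 SREBP proteases and sterol-linked ubiquitin ligases, 5 rose and 2 fell. The ligases Rnf145 (0.61) and March6 (0.45) rose, and Erlin1, an endoplasmic reticulum scaffold of sterol-linked protein degradation, fell by 0.49. Rnf145 went from 50.6 to 68.9 CPM at 0 h to 61.9 to 122 CPM at 24 h, with overlap.

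Of 12 lipoprotein receptors and intracellular sterol carriers, 5 rose and 1 fell, against the same 21.7% and 16.1% of all tested genes. The receptor Lrp8 (0.69) and the carrier Osbpl2 (0.58) rose, and Gramd1a, which moves plasma membrane sterol inward, fell by 0.50. Of 8 LXR and RXR receptors and further LXR targets, 6 were tested, 3 rose and 0 fell. Rxrb rose by 0.35 and Nr1h3, which encodes an LXR, by 1.45 from at most 0.44 CPM at 0 h. Nr1h3 had 4 to 9 counts at 0 h and 9 to 35 at 24 h, and iFoxA1 replicate 3 (0.27 CPM) and iFoxL2 replicate 2 (0.41 CPM) lay within the 0 h range. Rxrg was at 0 to 0.24 CPM at 0 h and at 0.63 to 1.71 CPM at 24 h, so its call rests on few counts as well. Of 6 oxysterol enzymes 4 were tested and Cyp27a1 rose (0.81), within ranges of 0.35 to 1.21 CPM and 0.45 to 1.66 CPM. Of 10 genes of the isoprenoid branch 0 rose and 2 fell, Pdss1 (-0.53) and Rabggtb (-0.38), which serve ubiquinone synthesis and protein prenylation.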

How the data were processed

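Strand-specific libraries of polyadenylated RNA were quantified with Salmon 1.4.0, and DESeq2 1.30.1 and mm10 are also listed, per the submitters' processing notes. The authors deposited estimated counts per transcript, not normalised, and a table of TPM for the same 137271 transcripts, from an annotation not given in the sources used here. Of these, 137225 matched GENCODE M21 and were summed per gene symbol, and the 46 others held at most 0.0133% of a library's counts. Retained-intron and other noncoding transcripts of a gene were included in its sum.

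Summed counts were rounded, filtered with filterByExpr, scaled with TMM and fitted with edgeR 4.0.16 (R 4.3.3) to 10 groups of line and time, with 7 residual degrees of freedom. Groups with 1 library were assumed to vary like the others. The quasi-likelihood test was used with Benjamini-Hochberg adjustment over all genes tested. SE was derived from the F statistic. Alternatives used DESeq2 1.42.0, limma 3.58.1 on log2(TPM + 1), other scalings, filters and library sets, and libraries left out. The script was tested on simulated data. Levels are TMM-scaled CPM. Genes described in full were the 6 of each role with the smallest adjusted p and any called between lines, with up to 4 per further list, a few of which are not reported here. The members and lists were chosen with earlier results of these data known.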

Additional observations from a re-analysis of the deposited data

Results flagged for a closer look

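These results differed between lines by a test of the difference itself. For Insig1 the test that the 5 changes were equal gave an adjusted p of 0.031. The change in iFoxC1 minus the mean of the 4 others was -1.83 for Insig1, -1.54 for Dhcr7, -1.49 for Stard4, -1.21 for Msmo1 and -1.34 for Scd2, a stearoyl-CoA desaturase outside the 31 genes. Scd2 went from 576 CPM to 293 and 323 CPM in iFoxC1, and its level in the other 0 h libraries was 302 to 486 CPM. In iFoxA1 the corresponding value for Msmo1 was 0.85. All 5 iFoxC1 values use the lone iFoxC1 library at 0 h, which has no replicate check. In the comparison at 24 h, whose differences do not use that library, Insig1 (-0.77), Msmo1 (-0.64) and Scd2 (-0.69) were below the other lines in iFoxC1 with adjusted p values of 0.024, 0.034 and 0.041. Dhcr7 (-0.62, adjusted p = 0.090) and Stard4 (-0.60, adjusted p = 0.069) did not pass. With 1 library left out, the Insig1 call was kept in 12 and the Msmo1 call in 8 of 17 fits.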

How the results depend on the processing

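Of the 15 genes called in the average change, 11 were called in every fit that left out 1 library and 9 in every other setting. The counts that moved by over 1.5 times were as follows. Genes that fell (11) were 19 in the first library set alone, 17 without both libraries that stood apart and 6 with limma on log2(TPM + 1) or log2(TPM + 0.1). Leaving out 1 library gave 7 to 14 that fell and 4 to 8 that rose. Enzymes that fell (6) were 10 with DESeq2, 13 in the first set, 11 without both libraries and 3 in each TPM fit. Genes called for a difference among the changes (1) were 2 with upper-quartile scaling, 9 with DESeq2, 3 with the stricter filter, 7 with library set as a term, 31 in the first set, 18 without both libraries and 0 in each TPM fit, and 0 to 4 leaving out 1 library. Line-specific calls (5) were 11 with DESeq2, 2 with no count filter, 17 with the set term, 85 in the first set, 31 without both libraries, 0 in each TPM fit and 0 to 11 leaving out 1 library. Calls at 24 h (9) were 26, 5, 28, 88, 53 and 2 under the same settings, and 3 to 22 leaving out 1 library. Within-line calls (25) were 44, 15, 45, 103, 74 and 9, and 10 to 38. At 0 h (0 called) there were 4 with DESeq2, 3 with the set term, 28 in the first set, 11 without both libraries and 0 to 2 leaving out 1 library. The first set has replicates in iFoxA1 alone, so its spread rests on that line, and 63.2% of all tested genes were called in its average change.

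With a replicate block, 4 genes differed among the changes, 28 calls were made at 24 h and 39 within lines. Pairing of samples by replicate number could be checked in iFoxA1 alone, since every other line has a lone library at 0 h. Across genes, the differences between iFoxA1 replicates 1 and 2 at 0 h and at 24 h had a Pearson r of 0.039. In TPM, Insig2 turned to 0.27 and 0.29 (pseudocounts 1 and 0.1) in the average change and Dhcr7 to 0.13 with either pseudocount within iFoxC1. Dhcr7-213, a short transcript, held 30.5 to 97.8 TPM in the second set and at most 3.21 TPM elsewhere. With no count filter the median change of all genes was 0.12, against 0.04. The shorter sterol element was found in 1 matched promoter and the longer in 0. Causes of the other moves were not tested.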
